A study of Homo sapiens and Mus musculus with 36 samples.

Results

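The genes described here encode proteins that hepatocytes secrete into plasma to carry hormones, vitamins, metals, heme and lipids or to bind proteases: ALB, AFM, AFP, TTR, TF, HPX, SERPINA1, SERPINA7, A2M and RBP4. They were taken by symbol from a list, and the choice was made with earlier results of these data known. All 10 were among the 19775 genes measured in human HepaRG cells. The same symbols in mouse case gave 8 of the 18193 genes measured in mouse liver, and mouse transferrin and alpha-1-antitrypsin, whose symbols differ, are treated apart. The series title concerns the testing of an adverse outcome pathway, a chain of events leading to liver injury, for cholestasis, the state in which bile flow is impaired.

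RNA was measured on Affymetrix 3′ arrays in 36 samples. HepaRG is 1 human hepatoma line, sold as cryopreserved differentiated cells, whose cultures hold hepatocyte-like and biliary-like cells. After 72 h of exposure, 8 groups of 3 arrays were available: control, a bile acid mixture concentrated 50 times (the mix), atazanavir at 60 µM, cyclosporin A at 20 µM, nefazodone at 30 µM, and each drug at the same dose with the mix. According to the series text the cultures came from 3 HepaRG batches. The mouse arrays held livers of Sv129 mice taken 6 weeks after surgery, 6 with a ligated common bile duct and 6 sham-operated animals whose duct was isolated but not tied. The labels used here give neither the animals' age nor sex.

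Albumin (ALB), alpha-fetoprotein (AFP) and afamin (AFM) belong to 1 protein family. Albumin is the main protein of plasma and carries fatty acids, bilirubin, bile acids and many drugs, alpha-fetoprotein is its fetal relative and is largely silenced in liver after birth, and afamin carries vitamin E. Transthyretin (TTR) and thyroxine-binding globulin (SERPINA7) carry thyroid hormone, and transthyretin also holds retinol-binding protein 4 (RBP4), the carrier of vitamin A. Transferrin (TF) carries iron and hemopexin (HPX) binds free heme. Alpha-1-antitrypsin (SERPINA1) and alpha-2-macroglobulin (A2M) inhibit proteases, and SERPINA7 is a serpin by family although it inhibits no protease.

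The promoter sequence just before the transcription start was available for 8 of the 10 genes, in 12 windows, from RefSeq on GRCh38.p14. ALB, AFP and AFM lie side by side on chromosome 4 on the same strand, with no other gene of the RefSeq table starting between them. The sequences of these neighbours are shown because their RNA levels took different courses below, and SERPINA7, on the X chromosome, is shown because its RNA level ranged from 11.84 in control to background. Capitals mark the TATA box letters TATAAA and the CCAAT box letters CCAAT on either strand. Each is 250 bases, 5′ to 3′ on the gene's strand. The windows are chr4:73404037-73404286 for ALB, chr4:73435971-73436220 for AFP and chr4:73481495-73481744 for AFM, all on the plus strand, and chrX:106038728-106038977 for SERPINA7, on the minus strand.
ALB: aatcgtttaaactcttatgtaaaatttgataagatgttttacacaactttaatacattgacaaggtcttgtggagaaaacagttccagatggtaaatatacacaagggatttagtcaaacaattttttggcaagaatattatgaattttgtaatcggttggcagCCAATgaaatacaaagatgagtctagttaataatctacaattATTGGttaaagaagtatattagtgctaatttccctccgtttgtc
AFP: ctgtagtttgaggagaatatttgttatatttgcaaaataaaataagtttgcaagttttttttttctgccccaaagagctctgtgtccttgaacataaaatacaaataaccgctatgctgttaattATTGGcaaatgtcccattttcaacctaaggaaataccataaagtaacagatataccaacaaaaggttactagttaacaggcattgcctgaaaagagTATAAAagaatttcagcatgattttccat
AFM: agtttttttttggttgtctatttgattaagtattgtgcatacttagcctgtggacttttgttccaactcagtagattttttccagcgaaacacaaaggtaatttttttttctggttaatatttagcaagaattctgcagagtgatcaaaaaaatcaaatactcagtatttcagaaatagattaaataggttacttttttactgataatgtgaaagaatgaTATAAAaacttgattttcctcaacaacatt
SERPINA7: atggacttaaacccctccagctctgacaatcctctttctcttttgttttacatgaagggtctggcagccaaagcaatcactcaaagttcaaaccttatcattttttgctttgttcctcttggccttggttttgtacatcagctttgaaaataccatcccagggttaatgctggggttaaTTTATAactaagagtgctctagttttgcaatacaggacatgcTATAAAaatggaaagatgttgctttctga
Both strands were searched. TATAAA, the TATA box, was found in 5 of the 12 windows, of AFM, AFP, RBP4 and SERPINA7, against 10.7% of all 35116 RefSeq promoter windows of that length. CCAAT was found in 5 of the 12 windows, of AFP, ALB, HPX, RBP4 and TF, against 32% of all windows. These matches describe letters in a window and nothing more. No match to TGTTTAC (FOXA), CAAAGTCCA (HNF4) or TTGCGCAA (C/EBP) was present in these windows. Of all windows 2.98%, 0.325% and 0.131% hold these letters, so their absence from 12 windows says little.

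In the control cultures all 10 RNAs were measured above the dimmest 1 in 3 genes, whose mean log2 levels reached up to 4.27. All levels here are deposited log2 values, and a level near or below that bound may be largely set by background. The hepatocyte markers APOA1, APOC3, APOH, FGB, CYP3A4, CYP2E1, CPS1 and TAT had a mean log2 level of 11.45 ± 0.21 (SD, n = 3) in control cultures. That mean was 10.24 ± 0.32 with the mix, 7.85 ± 0.24 with atazanavir, 9.26 ± 0.58 with cyclosporin A and 8.09 ± 0.48 with nefazodone. With drug and mix together it was 8.48 ± 0.30 for atazanavir, 7.01 ± 0.21 for cyclosporin A and 7.77 ± 0.18 for nefazodone. All 8 hepatocyte markers fell with each drug alone. The 8 biliary markers, 3 of them dim on average, had means between 5.86 and 6.80 in the 8 groups. These means average over opposed changes. With cyclosporin A 4 rose and 2 fell, against 22.2% and 18.5% of all genes. With nefazodone 4 rose and 2 fell, against 25.0% and 20.6%. The mix on top of atazanavir raised 5, against 8.95%. The 5 stellate cell and fibroblast markers had means from 7.29 in control to 6.41 with cyclosporin A and the mix. The 3′ minus 5′ difference of GAPDH, a sign of RNA integrity, had group means between 0.49 and 0.66. The part of these markers in the results below was not tested, and in such bulk samples fewer hepatocytes and less RNA per hepatocyte cannot be told apart. Within groups the arrays correlated across genes at 0.9908 or more. The labels do not say whether the 3 arrays of a group came from separate cultures, so p-values measure the spread between these arrays, which may be technical.

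**Figure D1:**
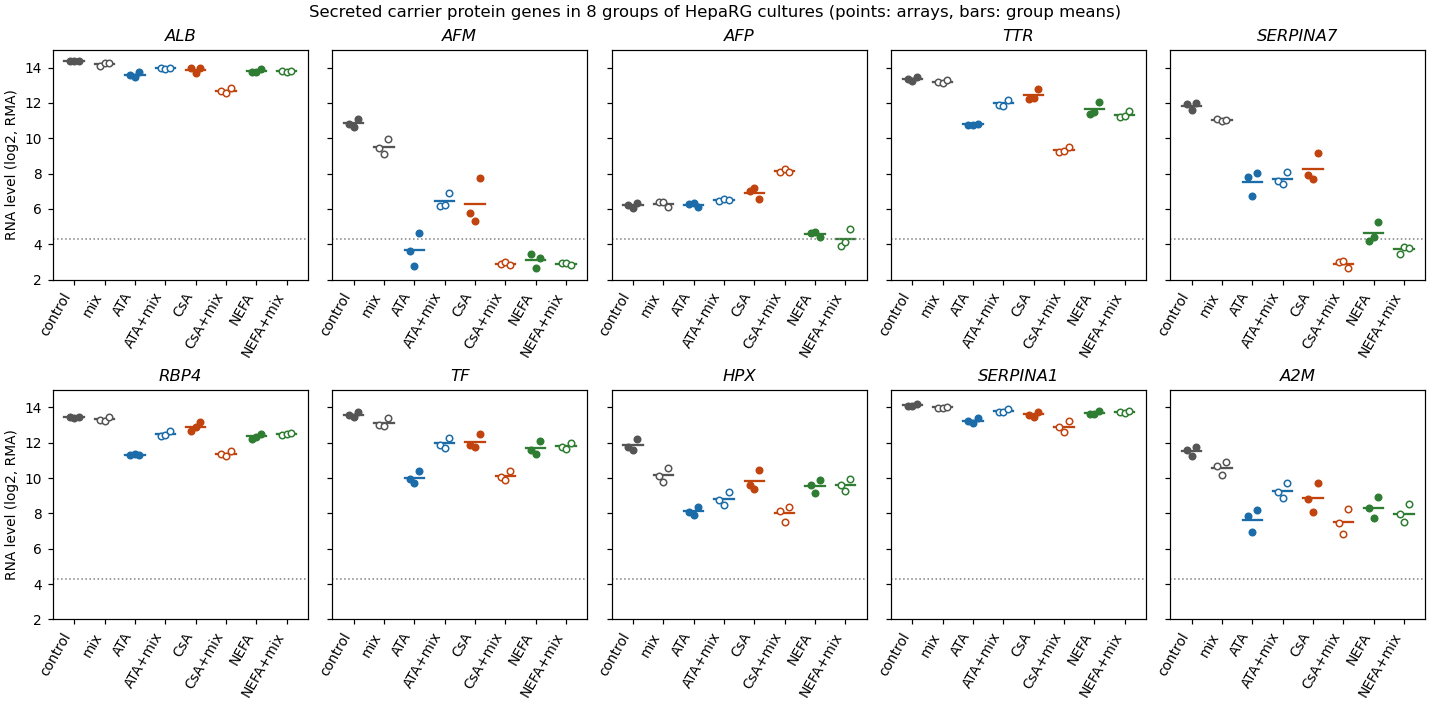
Log2 RNA level (RMA, y axis) of each of the 10 genes on the 24 HepaRG arrays, by group (x axis). Points are arrays, filled without and open with the bile acid mix, horizontal bars are group means, and the dotted line at 4.27 is the upper bound of the dimmest 1 in 3 genes. On the probe sets plotted ALB and SERPINA1 stayed within narrow ranges, AFM and SERPINA7 reached the dotted line, and AFP was highest with cyclosporin A and the mix.

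Each drug alone lowered nearly the whole group of carrier RNAs. With atazanavir 9 of 10 fell, against 13.2% of all genes tested that fell, with AFP at 6.23 against 6.20 in control. With cyclosporin A 9 fell, against 18.5% of all genes, and AFP rose, in a comparison where 22.2% of genes rose. With nefazodone all 10 fell, against 20.6% of all genes. The median log2 change of the 10 was -3.08 with atazanavir, -1.25 with cyclosporin A and -1.83 with nefazodone, where the median of all genes was 0.02, 0.04 and 0.01. These 3 comparisons share the control arrays. The size of the fall differed widely between genes: over the 8 group means the span was 8.95 log2 units for SERPINA7 and 7.96 for AFM, but 1.67 for ALB and 1.20 for SERPINA1, on the probe sets used. The first 2 spans end at background and the last 2 start near the top of the scale, so none of them is an exact measure of the change in RNA. Other probe sets of ALB and SERPINA1, given below, had larger changes. All falls in these comparisons had groups whose arrays did not overlap. The share of all genes with such groups was not counted, so this is not a trait of the carriers. Adjusted p-values here and below are from limma, Benjamini-Hochberg over all genes of a comparison.

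The mix alone changed little by this test. Only HPX fell, 1 of 10 against 3.37% of all genes, with a log2 change of -1.70 ± 0.28 (SE) (limma, adjusted p = 2.83e-04). The other values were in the same direction for all but AFP: 9 of the 10 changes were below 0, with a median of -0.32 against 0.01 over all genes. In this comparison same-numbered arrays deviated together, and a fit blocked on the replicate number called 4 genes, all lower: HPX, AFM, TF and A2M, with A2M at -0.94 and an adjusted p of 2.40e-04. TF also passed with the mean of its probe sets (-0.713, limma, adjusted p = 0.00334). SERPINA1 passed on its probe set with the largest variance (-0.935, limma, adjusted p = 0.00531). When only the groups compared were fitted, AFM, SERPINA7 and A2M passed, all lower.

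Against control, drug and mix together gave lower levels for 9 of 10 genes with atazanavir, against 12.3% of all genes. With cyclosporin A and the mix 9 fell, against 25.2%, and AFP rose, against 27.7% that rose, and with nefazodone and the mix all 10 fell, against 23.7%. The median change of the 10 was -1.51, -3.66 and -1.96.

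Adding the mix to a drug went in opposite directions for atazanavir and cyclosporin A. On top of atazanavir 7 of 10 RNAs rose, against 8.95% of all genes, and all 10 changes were above 0, with a median change of 0.91. On top of cyclosporin A 9 fell, against 18.4% of all genes, and AFP rose, against 18.4%, with a median change of -1.65. On top of nefazodone none of the 10 passed the threshold, against 15.5% of all genes that changed, and 6 of 10 changes were below 0 with a median of -0.12. AFM was already in the dimmest 1 in 3 genes with nefazodone alone, and AFP and SERPINA7 were close to that bound, at 4.57 and 4.61. Background may thus limit the size of a further fall of these genes. Lower levels were still measured: SERPINA7 had a mean of 3.71 with nefazodone and the mix, and 2.89 with cyclosporin A and the mix. At an unadjusted p under 0.05 in the limma fit, SERPINA7 alone of the 10 passed there. The difference between the effect of the mix with and without the drug was tested as an interaction: with atazanavir it passed the threshold upward for 8 of 10 genes, against 5.07% of all genes. With cyclosporin A it passed downward for 7 genes, against 15.0% of all genes, and upward for AFP, against 10.9%. With nefazodone HPX alone passed, upward, 1 of 10 against 4.57% of all genes.

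**Figure D2:**
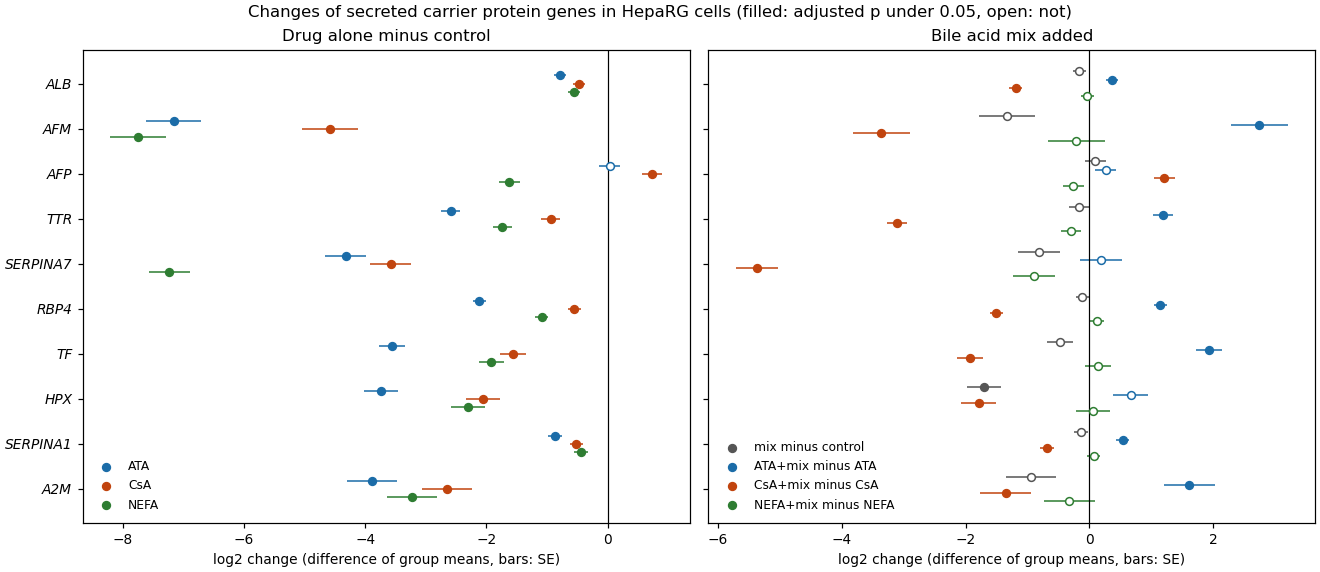
Log2 change (x axis, difference of group means, bars are SE from limma) of the 10 genes (y axis) with each drug alone against control (left) and when the mix was added to control, atazanavir, cyclosporin A or nefazodone cultures (right). Filled points passed an adjusted p of 0.05. On the right, the blue points (atazanavir) lie above 0 and the orange points (cyclosporin A) below 0, except for AFP.

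Among the albumin family, AFM had the steepest falls and AFP went its own way. AFM measured 10.83, 10.62 and 11.08 in the 3 control arrays, 9.45, 9.13 and 9.95 with the mix, and 3.64, 2.77 and 4.64 with atazanavir. It measured 5.74, 5.29 and 7.77 with cyclosporin A and 3.46, 2.65 and 3.20 with nefazodone. All drug arrays thus lay below all control arrays, and the groups with atazanavir, nefazodone, nefazodone and the mix, and cyclosporin A and the mix had means in the dimmest 1 in 3 genes. The log2 change was -7.16 ± 0.46 (SE) with atazanavir (limma, adjusted p = 1.57e-10), -4.58 ± 0.46 with cyclosporin A (3.57e-08) and -7.74 ± 0.46 with nefazodone (4.46e-12). Because those levels sit at background, the first and last of these changes depend on that floor.

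AFM also showed the partial return with atazanavir and the mix. It measured 6.14, 6.24 and 6.90 there, above all 3 arrays with atazanavir alone, a log2 rise of 2.75 ± 0.46 (limma, adjusted p = 1.63e-04), yet with a change of -4.42 from control. With cyclosporin A and the mix it measured 2.86, 3.02 and 2.84, a change of -3.36 from the drug alone (adjusted p = 4.45e-06) that ends at background. The interaction of AFM with cyclosporin A, -2.02 ± 0.64 (adjusted p = 0.0235), was lost when control replicate 2, mix replicate 3 or cyclosporin A replicate 3 was left out (limma, adjusted p = 0.0542, 0.0619 and 0.0666). Without cyclosporin A replicate 3, the highest of its group, the value was -1.27.

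AFP was the 1 gene of the 10 whose group mean was not highest in control. It measured 6.20, 6.07 and 6.32 in control, 7.04, 7.16 and 6.58 with cyclosporin A and 8.09, 8.24 and 8.07 with cyclosporin A and the mix. Both cyclosporin A groups lay above all control arrays, and the group with the mix above the group without. The log2 rise was 0.73 ± 0.17 with the drug (limma, adjusted p = 0.00145) and 1.94 ± 0.17, or 3.84-fold, with drug and mix (adjusted p = 2.06e-09). Adding the mix raised it by 1.21 ± 0.17 (adjusted p = 8.54e-06), with an interaction of 1.10 ± 0.24 (adjusted p = 0.00172).

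With nefazodone AFP fell instead. It measured 4.61, 4.68 and 4.42 with the drug and 3.91, 4.14 and 4.87 with drug and mix, all below the lowest control array. The log2 change with nefazodone was -1.62 ± 0.17 (limma, adjusted p = 4.74e-08). With atazanavir AFP measured 6.25, 6.33 and 6.10, a difference of 0.03 ± 0.17 that did not pass (adjusted p = 0.917, 95% interval -0.33 to 0.39). The sign of that small difference turned when control replicate 2 or atazanavir replicate 2 was left out (-0.03 and -0.02). Across the 8 group means AFP correlated with the other 9 genes at -0.48 to 0.19, while those 9 correlated with each other at 0.67 to 0.99. These values are a description over groups that may share batches and culture.

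ALB fell with each drug on all but 1 of its 4 probe sets, by amounts that depended on the probe set. The probe set used, 211298_s_at, measured 14.37, 14.35 and 14.36 in control, 13.56, 13.44 and 13.75 with atazanavir, and 12.65, 12.54 and 12.87 with cyclosporin A and the mix. The highest of these values is the highest on any HepaRG array, so the control level sits at the top of the scale. The log2 change was -0.78 ± 0.10 with atazanavir (limma, adjusted p = 1.50e-06), -0.48 with cyclosporin A, -0.55 with nefazodone and -1.67 with cyclosporin A and the mix.

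Other ALB probe sets gave larger falls. Probe set 1565228_s_at had 13.67 in control and changed by -1.83, -0.68 and -0.93 with atazanavir, cyclosporin A and nefazodone. Probe set 214837_at had 10.73 in control and changed by -3.13, -2.22 and -7.37, and it measured 3.36 with nefazodone and 3.39 with cyclosporin A and the mix, both in the dimmest 1 in 3. The remaining probe set, 214842_s_at, had 6.32 in control and rose by 0.62 with cyclosporin A and by 0.76 with nefazodone. The fall of ALB with the drugs thus held on 3 of 4 probe sets, while its size and the order of the drugs differed between them: nefazodone gave the largest fall on 214837_at and atazanavir on 211298_s_at and 1565228_s_at. On 214837_at the change on adding the mix to atazanavir was -0.53, where the probe set used gave 0.37. That rise was lost without atazanavir replicate 2 (0.295, limma, adjusted p = 0.0687) and with the mean of the probe sets (0.316, adjusted p = 0.133).

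**Figure D3:**
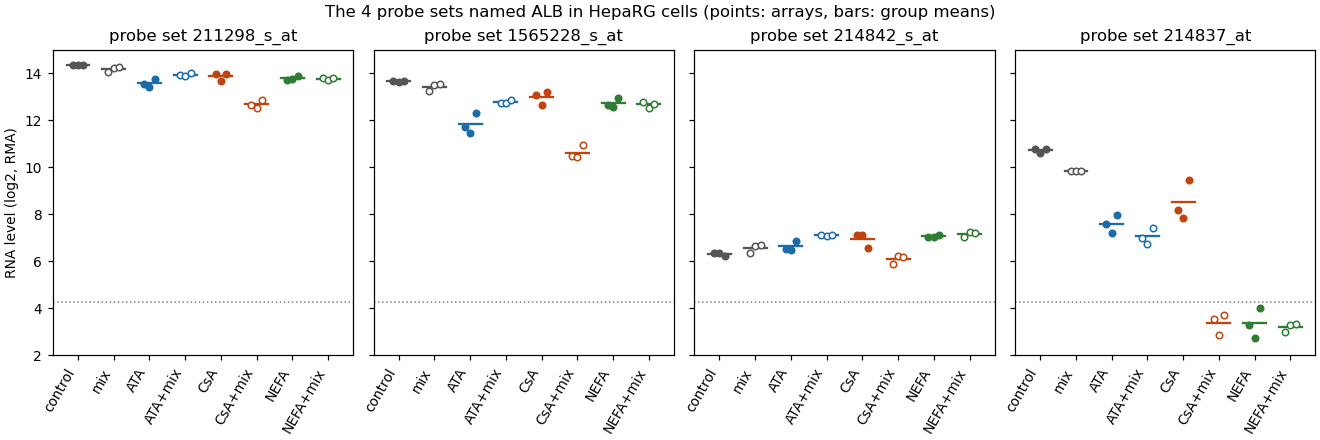
Log2 RNA level (RMA, y axis) on the 24 HepaRG arrays, by group (x axis), for the 4 probe sets named ALB, ordered by mean level. Points are arrays, filled without and open with the mix, bars are group means, and the dotted line at 4.27 is the upper bound of the dimmest 1 in 3 genes. Only 214837_at fell to the dotted line with nefazodone, and 214842_s_at did not fall with any drug alone.

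Both thyroid hormone carriers fell with each drug, SERPINA7 far more than TTR. SERPINA7 measured 11.95, 11.59 and 11.97 in control, 11.10, 10.96 and 11.02 with the mix and 7.79, 6.73 and 8.02 with atazanavir. It measured 7.94, 7.67 and 9.17 with cyclosporin A, 4.17, 4.40 and 5.26 with nefazodone, and 2.97, 3.06 and 2.64 with cyclosporin A and the mix. No array of any drug group overlapped with control, and the last group lay at background. The log2 change was -4.32 ± 0.34 with atazanavir (limma, adjusted p = 2.15e-09), -3.58 ± 0.34 with cyclosporin A (1.51e-08) and -7.23 ± 0.34 with nefazodone (1.17e-13).

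SERPINA7 differed from most of the others in how it met the mix. Added to atazanavir, the mix left it at 7.58, 7.42 and 8.10, a difference of 0.19 ± 0.34 that did not pass (limma, adjusted p = 0.787) and whose groups overlapped. Its sign turned without atazanavir replicate 2 (-0.205) or without replicate 3 of atazanavir with the mix (-0.02). Added to cyclosporin A, the mix gave a change of -5.37 ± 0.34 (adjusted p = 1.13e-10), with an interaction of -4.56 ± 0.48 (adjusted p = 4.29e-07). Added to nefazodone the values were 3.46, 3.87 and 3.81, all below the drug alone, a difference of -0.90 with an adjusted p of 0.0802. With the replicate number as a block, in a comparison where same-numbered arrays deviated together, that difference passed (adjusted p = 0.0353). The level with drug and mix lies in the dimmest 1 in 3 genes and that with the drug alone just above it, so the size of this difference is limited by background, as is that of the change and interaction with cyclosporin A.

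TTR measured 13.38, 13.26 and 13.47 in control, 10.77, 10.75 and 10.83 with atazanavir and 11.89, 11.84 and 12.18 with atazanavir and the mix. It measured 12.22, 12.29 and 12.79 with cyclosporin A and 9.20, 9.28 and 9.49 with cyclosporin A and the mix, the lowest group. These 5 groups did not overlap with each other. The log2 change was -2.59 ± 0.16 with atazanavir (limma, adjusted p = 8.05e-11), -0.94 with cyclosporin A and -1.74 with nefazodone. The mix added 1.19 ± 0.16 with atazanavir (adjusted p = 1.40e-05) and the change on top of cyclosporin A was -3.11 ± 0.16 (adjusted p = 7.62e-12).

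RBP4 followed TTR in outline with smaller changes. Its control arrays lay at 13.43 to 13.47 and its atazanavir arrays at 11.31 to 11.37, a log2 change of -2.12 ± 0.11 (limma, adjusted p = 1.26e-11). The changes were -0.55 with cyclosporin A and -1.09 with nefazodone. With the mix it rose by 1.15 ± 0.11 on top of atazanavir (adjusted p = 3.36e-07) and fell by 1.50 ± 0.11 on top of cyclosporin A (adjusted p = 1.25e-09). A second, dimmer probe set of RBP4, 222049_s_at, fell with atazanavir (-0.88) but measured 5.91 with cyclosporin A against 5.92 in control.

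TF, the iron carrier, had its lowest level with atazanavir and the largest return when the mix was added, after AFM. It measured 13.60, 13.45 and 13.73 in control, 9.98, 9.73 and 10.38 with atazanavir and 11.88, 11.72 and 12.30 with atazanavir and the mix. The 3 groups were apart from each other. The log2 change with atazanavir was -3.56 ± 0.21 (limma, adjusted p = 6.75e-11) and with the mix on top of it 1.94 ± 0.21, or 3.83-fold (adjusted p = 1.76e-06). The log2 change of TF was -1.56 with cyclosporin A, -1.92 with nefazodone and -3.48 with cyclosporin A and the mix. The brighter probe sets agreed, with 203400_s_at falling by 4.11 with atazanavir and rising by 2.15 when the mix was added. On the dim probe set 214064_at, TF fell with the mix alone, by 1.28.

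HPX, the heme binder, was the 1 gene of the 10 that the mix alone lowered past the threshold in the main fit, on the probe sets used. It measured 11.79, 11.62 and 12.19 in control and 10.15, 9.81 and 10.55 with the mix, 3.24-fold lower with no overlap. Its second probe set, 210013_at, fell by 1.88. With atazanavir it measured 8.11, 7.93 and 8.35, a log2 change of -3.74 ± 0.28 (limma, adjusted p = 1.05e-09). The change was -2.05 with cyclosporin A and -2.31 with nefazodone. Added to atazanavir the mix gave 8.74, 8.47 and 9.20, all above the drug alone, a difference of 0.67 ± 0.28 that did not pass (adjusted p = 0.0988). It passed when only the groups compared were fitted (limma, adjusted p = 0.0261) and with array weights (0.0352). Added to nefazodone it gave 9.61, 9.29 and 9.94 against 9.62, 9.16 and 9.88, a difference of 0.06 (adjusted p = 0.938). The interaction with nefazodone was 1.76 ± 0.39 (adjusted p = 0.00439), set against the change of -1.70 with the mix alone.

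The protease inhibitors differed in scale. SERPINA1 lay between 14.10 and 14.18 in control and between 12.64 and 13.21 in its lowest group, cyclosporin A with the mix. Its log2 change was -0.87 ± 0.11 with atazanavir (limma, adjusted p = 1.50e-06), -0.52 with cyclosporin A and -0.44 with nefazodone. Probe set 202833_s_at gave -1.04, -0.67 and -0.56 and probe set 230318_at gave -1.97 with atazanavir and -1.78 with cyclosporin A, so the size again depended on the probe set. The remaining probe set, 211428_at, was dim, at 2.29 in control, and did not pass with any drug. With atazanavir and the mix the change from control, -0.33 (adjusted p = 0.0247), was lost when control replicate 3 or replicate 1 or 2 of that group was left out, and after a further quantile normalization.

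A2M measured 11.59, 11.27 and 11.77 in control, 7.85, 6.95 and 8.17 with atazanavir, and 9.23, 8.86 and 9.73 with atazanavir and the mix. The log2 change was -3.89 ± 0.41 with atazanavir (limma, adjusted p = 1.37e-07), -2.65 with cyclosporin A and -3.23 with nefazodone. The rise of 1.62 with the mix on top of atazanavir (adjusted p = 0.00713) was lost without atazanavir replicate 2, the lowest array of its group (adjusted p = 0.0571). On top of cyclosporin A the change was -1.35 (adjusted p = 0.0117) with overlapping groups, and the call was lost without cyclosporin A replicate 3 or without replicate 2 of cyclosporin A with the mix (adjusted p = 0.0994 and 0.0839). A2M without them changed by -0.94 and -1.02. In order of number, A2M measured 8.84, 8.11 and 9.73 with cyclosporin A and 7.48, 6.86 and 8.28 with the mix added. Each same-numbered array was lower with the mix there, and higher with the mix on top of atazanavir. For A2M, array 3 was the highest and array 2 the lowest in 8 of 8 groups, and the labels do not say what the numbers stand for. A second probe set of A2M was dim and flat, with 3.92 in control and 3.94 with atazanavir.

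Compared directly, at doses that differ, atazanavir gave lower levels than cyclosporin A for 9 of 10 genes, against 20.3% of all genes, with a median difference of -1.40. The exception was SERPINA7 (-0.74, limma, adjusted p = 0.0857). Calls of ALB, SERPINA1 and A2M in this comparison were lost when atazanavir replicate 2 or cyclosporin A replicate 3 was left out, and that of ALB also without replicate 1 of either drug. Those of ALB and SERPINA1 were lost too when only these groups were fitted. Left out 1 array at a time, the count ranged from 6 to 10. Against nefazodone, atazanavir gave lower levels for 5 genes, TTR, TF, HPX, SERPINA1 and RBP4, against 20.1% of all genes, and higher levels for AFP (1.66) and SERPINA7 (2.91), against 19.7%. For SERPINA1 this order was lost on other probe sets. Cyclosporin A gave higher levels than nefazodone for AFM, AFP, TTR, SERPINA7 and RBP4, against 17.6% of all genes.

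In the order of the 8 group means, control came first and the mix alone second for all genes but AFP. The lowest group was cyclosporin A with the mix for ALB, TTR, HPX, SERPINA1 and A2M, atazanavir for TF and RBP4, and nefazodone with the mix for AFP. For AFP the arrays of that group overlapped with those of nefazodone alone, at a difference of 0.26 between the means. AFM and SERPINA7 were at background in more than 1 group, nefazodone with the mix and cyclosporin A with the mix among them for both, and these groups have no order. Neighbours in that order often overlapped in their arrays: 5 of the 7 neighbouring pairs for A2M and HPX, 4 for ALB, AFM, TF, SERPINA1 and RBP4, 3 for TTR and AFP, and 2 for SERPINA7. Atazanavir and cyclosporin A with the mix, the lowest groups of TF, RBP4, HPX, SERPINA1 and A2M, could not be ordered beyond their spread.

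The genes most like each carrier over the 8 group means were found among 13182 genes above the dimmest 1 in 3. The measure was Pearson r over 8 points that may share batches and culture. For SERPINA7 they were GRAMD1C (0.999), FZD4 (0.994) and SLC37A4 (0.994), and for AFM they were HJV (0.994), DPYS (0.987) and CYP8B1 (0.986). TTR was closest to APOC1 (0.994), FRAT1 (0.988) and APOC3 (0.987). TF and RBP4 were each other's closest gene (0.987), followed by C5 and ITIH4 (0.977 each) for TF and by CRLS1 (0.985) and A1CF (0.974) for RBP4. HPX came with MMUT (0.984), APOA1 (0.982) and SPNS2 (0.968), SERPINA1 with ABCC3 (0.982), PROX1 (0.978) and ITPR2 (0.975), and A2M with C1R (0.990), PTPRG (0.984) and LINC00957 (0.981). ALB was closest to RESF1 (0.987), TMEM256 (0.980) and LRP5 (0.979). AFP had JKAMP (0.988), PSMD1 (0.983) and NAP1L2 (0.982). Pearson r compares the course over groups and not the size of the changes. Over the group means A2M, HPX, RBP4 and ALB spanned 4.01, 3.84, 2.12 and 1.67 log2 units. Their neighbours LINC00957, SPNS2, CRLS1 and RESF1 spanned only 0.34, 0.68, 0.72 and 0.83. The other neighbours named spanned more, up to 6.64 for APOC3.

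Other serpins and macroglobulin-family inhibitors were also lower with each drug. Beside the HepaRG lists from here on, 13.2% of all genes fell with atazanavir, 18.5% with cyclosporin A and 20.6% with nefazodone. The shares that rose were 22.2%, 22.2% and 25.0%. With the mix alone 3.37% fell and 6.78% rose. Added to atazanavir the mix lowered 10.3% and raised 8.95%, added to cyclosporin A 18.4% and 18.4%, and added to nefazodone 7.92% and 7.55%. All 10 inhibitors measured fell with each drug alone, with a median log2 change of -3.32 for atazanavir, -1.33 for cyclosporin A and -2.34 for nefazodone. SERPINC1, antithrombin, fell by 4.80 with atazanavir, and SERPIND1, heparin cofactor II, changed by -4.65 with atazanavir, -3.36 with cyclosporin A and -6.16 with nefazodone. With the mix alone 5 of 10 fell, among them SERPIND1 (-2.82), SERPINF2 (-2.22), SERPINF1 (-1.19) and SERPINA3 (-1.07). Adding the mix to atazanavir raised 6 and adding it to cyclosporin A lowered 9, such as SERPINA4, which changed by 1.76 and -3.13 in these comparisons.

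Of 11 other plasma carriers and binding proteins, 7 fell with atazanavir, 7 with cyclosporin A and 8 with nefazodone, and 1 rose in each. HRG, histidine-rich glycoprotein, changed by -5.77, -3.33 and -5.89, and HP, haptoglobin, which binds free hemoglobin, by -2.21, -2.18 and -3.02. With the mix alone 3 fell, HP (-1.27), LCN2 (-0.88) and AMBP (-0.69). Added to atazanavir the mix raised 4, led by HRG (3.00). Added to cyclosporin A it lowered 7, led by HP (-4.29) and ORM1 (-2.46), and raised 1. With nefazodone it raised LCN2 (1.31) and lowered SELENOP (-0.69).

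The receptors that take up or clear these proteins were measured in 9 genes. With atazanavir 5 fell and 1 rose, with cyclosporin A 4 fell, and with nefazodone 5 fell and 1 rose. ASGR1, a subunit of the asialoglycoprotein receptor, changed by -4.29, -1.72 and -2.71, and FCGRT, the neonatal Fc receptor chain that recycles albumin, by -2.07, -0.95 and -1.65. LRP1, which clears A2M complexes and hemopexin with heme, changed by -1.50, -0.73 and -1.66, and with the mix alone by -0.40. The mix raised 4 on top of atazanavir and lowered 1, and lowered 5 on top of cyclosporin A.

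Genes of iron and heme handling moved less uniformly. Of 11, atazanavir lowered 5 and raised 1, cyclosporin A lowered 4 and raised 2, and nefazodone lowered 5 and raised 3. SLC40A1, the iron exporter ferroportin, changed by -1.32, -0.89 and -1.41. HMOX1, which degrades heme, rose by 0.79 with atazanavir and 0.97 with cyclosporin A, and fell by 0.96 when the mix was added to atazanavir. STEAP3, a ferric reductase, fell by 1.89 when the mix was added to cyclosporin A. With the mix alone SLC40A1 rose by 0.49 and SLC39A14, a zinc and iron importer, fell by 0.42.

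Among 11 genes of retinoid and thyroid hormone handling, 6 fell with atazanavir, 5 fell and 2 rose with cyclosporin A, and 8 fell and 1 rose with nefazodone. DIO1, the deiodinase that converts thyroxine in liver, changed by -4.41, -1.78 and -3.62, and THRSP, a thyroid hormone responsive gene, by -1.67, -1.75 and -1.90. With the mix alone THRSP (-0.87) and RDH10 (-0.58) fell and THRB, a thyroid hormone receptor, rose (0.46). On top of atazanavir the mix raised RDH10 (0.52) only. On top of cyclosporin A it lowered 7, led by DIO1 (-3.40) and DHRS3 (-1.64).

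Of 14 transcription factors of liver plasma protein genes, 10 fell and 1 rose with atazanavir, 7 fell with cyclosporin A, and 10 fell and 3 rose with nefazodone. PROX1 changed by -2.76 with atazanavir and -1.54 with cyclosporin A, and FOXA1 by -1.04 with cyclosporin A and -2.34 with nefazodone. CEBPA fell by 1.42 with atazanavir. The mix raised PROX1 (1.29), ZBTB20 (0.63) and ZHX2 (0.47) on top of atazanavir. ZBTB20 and ZHX2 are known as repressors of AFP. AFP itself differed by 0.27 there (limma, adjusted p = 0.322), and its relation to these factors was not tested in any group. With the mix alone ZBTB20 (0.57) and ZFHX3 (0.41) rose.

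The 12 genes for folding and export of secreted proteins from the endoplasmic reticulum took another course. With cyclosporin A 11 of 12 rose, while 9 of the 10 carriers fell. LMAN1, a cargo receptor for secreted proteins, rose by 1.15, EDEM1 and MCFD2 by 0.84 each and PDIA3 by 0.74. With atazanavir 8 fell, led by SEC24A (-0.46), and with nefazodone 4 rose and 3 fell. The mix alone lowered 5, led by PDIA4 (-0.61), and raised 1. On top of atazanavir it raised 10, and on top of nefazodone 11, led by PDIA4 (0.89), although no carrier passed the threshold in that last comparison. On top of cyclosporin A it lowered 4 and raised 1.

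In mouse liver 6 weeks after ligation, Afp and Serpina7 were clearly higher, and the other 6 genes changed by 0.33 log2 units or less in either direction. Of the 8 measured, 3 rose, against 20.5% of all genes, and 2 fell, against 21.1%, so their share of calls was near that of all genes (5 of 8 against 41.6%). The median change of the 8 was 0.00 against -0.05 over all genes. The hepatocyte markers had a mean log2 level of 14.07 ± 0.02 (SD, n = 6) after ligation and 14.19 ± 0.01 in sham liver, with 2 of 8 lower past the threshold. Macrophage markers, which mark the liver's resident and recruited phagocytes, had means of 9.46 ± 0.42 and 7.81 ± 0.19, and biliary markers 6.69 ± 0.72 and 5.40 ± 0.54. The part of these cells in the results was not tested.

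Afp, nearly silent in adult liver, rose in every ligated animal. It measured from 4.34 through a median of 5.15 to 6.00 in the 6 sham livers and from 6.99 through 7.58 to 7.93 in the 6 ligated livers, with no overlap. The log2 rise was 2.31 ± 0.29 (SE), or 4.97-fold (limma, adjusted p = 3.90e-05), from a sham mean of 5.18 that lies in the dimmest 1 in 3 mouse genes (bound 5.40). Of the other 4 Afp probe sets, 3 rose, by 1.04, 1.52 and 0.54, and 1436880_at, at 4.17 in sham liver, differed by 0.07.

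Serpina7 measured from 7.83 through 9.09 to 10.19 in sham liver and from 9.99 through 10.75 to 11.52 after ligation. The groups overlapped in that 1 sham animal lay above the lowest ligated animal. The rise was 1.74 ± 0.35, or 3.33-fold (limma, adjusted p = 0.00165). In HepaRG cells the same gene had fallen with each drug after 72 h. With the mix alone it changed there by -0.81, which did not pass (limma, adjusted p = 0.145). Species, exposure and time all differ between these settings.

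Hpx rose slightly, by 0.32 ± 0.06 (limma, adjusted p = 0.00129), from sham values of 14.25 to 14.55 to ligated values of 14.61 to 14.77. Afm fell by 0.33 ± 0.06 (adjusted p = 0.00124), with ligated values of 12.11 to 12.28 all below the sham values of 12.38 to 12.63. A2m fell by 0.21 (adjusted p = 0.023) at levels in the dimmest 1 in 3 genes in both groups, a call lost after a further quantile normalization (-0.12, adjusted p = 0.183), without ligated animal 6, or without ligated animal 1 and sham animal 2 together. Alb (0.07 ± 0.05, adjusted p = 0.249), Ttr (-0.07 ± 0.05, 0.326) and Rbp4 (-0.14 ± 0.06, 0.0662) did not pass. Rbp4 has only 1 probe set, and its change was -0.135 in both settings where it passed. These were the fit with the probe sets of other genes averaged (limma, adjusted p = 0.0455) and the robust trend (0.0193). On 2 of its 3 other probe sets Ttr was lower past the threshold, with changes of -0.22 and -0.20. These levels are near the top of the array's scale.

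**Figure D4:**
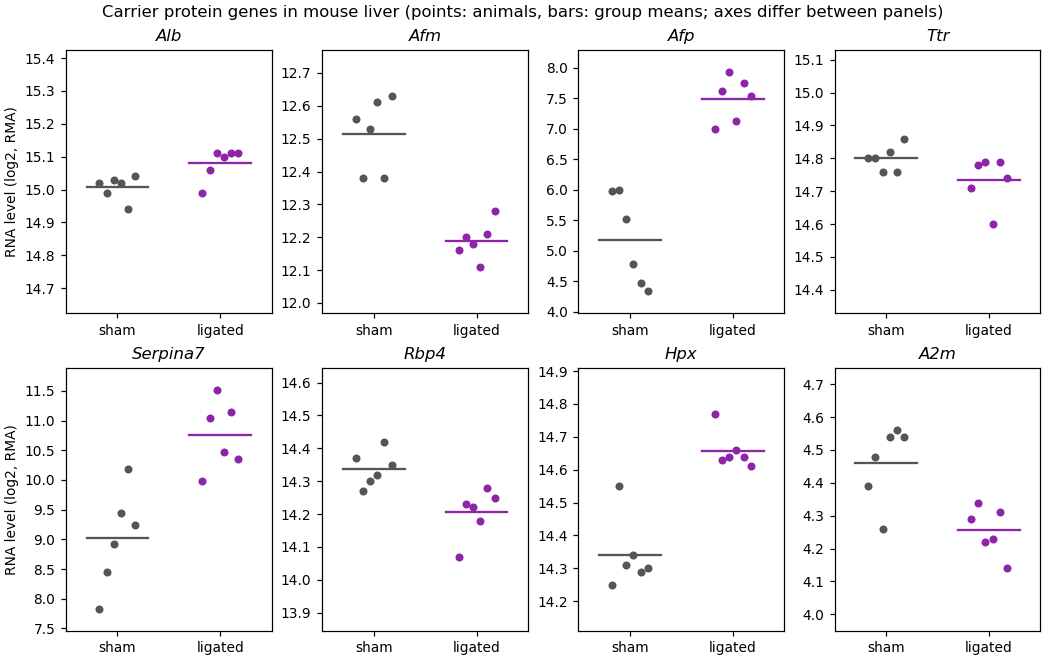
Log2 RNA level (RMA, y axis, with a different range in each panel) of the 8 genes measured in mouse liver, for 6 sham-operated and 6 duct-ligated animals. Points are animals and bars group means. Afp, Afm and Hpx did not overlap between the groups, and Serpina7 overlapped in 1 sham animal.

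The mouse genes for alpha-1-antitrypsin are a cluster of near-identical copies, so the signal of a probe set may come from several of them. Serpina1b fell by 0.13 (limma, adjusted p = 0.0426) and Serpina1c fell by 0.26 (adjusted p = 0.00189). Mouse transferrin, Trf, has a probe set annotated to several genes and was not analysed here. Ligated animal 1 stood apart in neutrophil markers (1.87 above the median of the other ligated animals) and sham animal 2 in intestinal markers (4.47 above the other sham animals). Without both, the calls of Afp, Serpina7, Hpx and Afm stood.

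Of the other plasma carriers in mouse, 6 of 12 rose and 2 fell, led by Lcn2 (4.56), lipocalin 2, and Orm2 (3.02), an acute phase protein, with Igfals (-1.07) and Serpina6 (-0.69), the corticosteroid carrier, falling. Of 10 other protease inhibitors, Serpina10 (0.26) and Serping1 (0.25) rose and Serpina11 (-0.32) fell. Tfrc, the transferrin receptor, was the 1 of 9 receptor genes that passed (-0.55). Iron and heme genes rose in 5 of 12 and fell in 1, led by Hmox1 (0.98), Steap3 (0.67) and Slc40a1 (0.58). Of 11 retinoid and thyroid hormone genes 4 fell, Retsat (-1.60), Thrsp (-1.50), Dio1 (-0.78) and Thrb (-0.59), and 2 rose. Of 15 transcription factors only Cebpd (0.88) and Onecut1 (-0.67) passed, and of 12 folding and export genes 2 rose and 3 fell, with Man1b1 (0.62) and Lman1 (-0.51) the largest. All these counts stand beside 20.5% of all genes that rose and 21.1% that fell. For the inhibitors, receptors and transcription factors they were no higher than these shares.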

How the data were processed

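RNA was measured in 12 mouse liver and 24 HepaRG samples. The deposited values are log2 levels of probe sets. The authors used RMA to make them, according to the submitters' processing notes, without a version. RMA corrects background, quantile-normalizes arrays and summarises probes, and those steps could not be varied. Array medians lay between 5.38 and 5.50 in mouse and between 4.24 and 4.38 in HepaRG. The number of arrays limits the precision, and no detection call exists.

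Probe sets with 1 gene symbol were used, 34945 in mouse and 41091 in HepaRG, and each gene was read from its brightest probe set on average over the platform's arrays. Group means were fitted with limma 3.58.1 in R 4.3.3 (lmFit, eBayes, 2-sided), the 24 HepaRG arrays together (16 residual degrees of freedom) and the 12 mouse arrays together (10). P-values were adjusted by Benjamini-Hochberg over all genes of each of 17 comparisons, with calls at an adjusted p under 0.05. The script was tested on simulated data.

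The members, gene lists and rules were chosen with earlier results of these data known. All 10 genes were named in each comparison, with up to 4 largest called changes of each list and the 3 genes of highest Pearson r over 8 group means. Sequences are from RefSeq.

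Replicate numbers were checked for pairing. Every pair of same-numbered arrays correlated above 0.1 in its deviations from group means in 3 comparisons: the mix against control (0.19 to 0.26), nefazodone against control (0.11 to 0.18), and nefazodone with against without the mix (0.13 to 0.29). Nothing in the labels ties these numbers to batches. Alternatives covered the choice of probe set, a further quantile normalization, a filter on dim genes, the replicate block, array weights, a robust trend, fits of only the groups compared, and leaving out arrays.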

Additional observations from a re-analysis of the deposited data

Results flagged for a closer look

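In mouse liver, Hpx was far from the rest of its group on ligated animal 1, at 14.77, and on sham animal 2, at 14.55. These were 2 of 16 checks of a gene in a group of 6, where chance flags about 1 in 20. Ligated animal 1 also stood apart in neutrophil markers and sham animal 2 in intestinal markers, and the part of these in the Hpx values was not tested. Without both animals the rise of Hpx was 0.34 on the log2 scale.

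The effect of the mix differed with and without atazanavir, by an interaction term in limma, for 8 genes, always upward on the log2 scale: AFM by 4.08, A2M by 2.56, TF by 2.40, HPX by 2.37, TTR by 1.35, RBP4 by 1.26, SERPINA1 by 0.67 and ALB by 0.53. The AFM value rests on a level with atazanavir alone that is in the dimmest 1 in 3 genes, so its size is limited by background. For ALB the adjusted p of 0.0131 became 0.736 on the probe set with the largest variance and 0.0602 after a further quantile normalization.

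With cyclosporin A the interaction was downward for 7 genes, SERPINA7 at -4.56, TTR at -2.95, AFM at -2.02, TF at -1.45, RBP4 at -1.39, ALB at -1.03 and SERPINA1 at -0.56, and upward for AFP, at 1.10. SERPINA7 and AFM were at background with cyclosporin A and the mix, which limits the size of their values. With the mean of its probe sets TF was at -0.461 (limma, adjusted p = 0.124), and on the probe set with the largest variance SERPINA1 had an adjusted p of 0.143. With nefazodone HPX alone passed, at 1.76.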

How the results depend on the processing

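Fitted with the replicate number as a block, the count of called carrier genes moved from 1 to 4 for the mix against control, from 0 to 1 for nefazodone with against without the mix, and from 1 to 2 for the interaction with nefazodone. It moved no other count by over 1.5 times. The block also moved single calls in comparisons where not every same-numbered pair correlated above 0.1 over all genes. HPX with the mix on top of atazanavir passed (limma, adjusted p = 1.27e-04), as did SERPINA7 between atazanavir and cyclosporin A. ALB and A2M passed between atazanavir and nefazodone, and TF and A2M between cyclosporin A and nefazodone, while mouse A2m did not (0.0537). For HPX, TF and A2M, array 3 was the highest and array 2 the lowest in 8 of 8 HepaRG groups. For the mix alone the count was 2 with the mean of a gene's probe sets, 2 with the probe set of largest variance, 2 with array weights and 4 when only the groups compared were fitted. For the interaction with nefazodone it was 2 with the mean of probe sets and 2 with only the groups compared. Leaving out each array gave 0 to 1 calls for nefazodone with against without the mix (1 without nefazodone replicate 1 or without replicate 3 of nefazodone with the mix) and 1 to 2 for the interaction with nefazodone (2 without replicate 3 of nefazodone with the mix). All other comparisons stayed within 1.5 times.

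Of 1343 values of single genes under other settings, 1284 kept their direction and side of the threshold, 31 gained a call, 16 lost it and 12 changed sign. The 12 were ALB with the mix (0.000 after quantile normalization), ALB with the mix on top of atazanavir (-0.533, probe set of largest variance) and of nefazodone (0.001, array weights), ALB between atazanavir and nefazodone (0.667 with the mean of probe sets, 4.236 with the largest variance), and the ALB interaction with nefazodone (-0.030, quantile). SERPINA1 between atazanavir and nefazodone gave 0.025, between cyclosporin A and nefazodone 0.041 and 0.218, and on top of nefazodone -0.111, all on other probe sets. With array weights the nefazodone interaction was 0.133 for SERPINA7 and 0.009 for TTR.

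With 1 array left out, 18 of 1236 values changed sign, 19 lost a call and 7 gained one. The ranges of those that changed sign were -0.031 to 0.096 for AFP with atazanavir, -0.205 to 0.440 for SERPINA7 with the mix on top of atazanavir, -0.063 to 0.029 for ALB with the mix on top of nefazodone, -0.032 to 0.353 for TF with the mix on top of nefazodone, -0.135 to 0.221 for HPX with the mix on top of nefazodone, -0.304 to 0.223 for HPX in the interaction with cyclosporin A, -0.801 to 0.008 for A2M in the interaction with cyclosporin A, -0.274 to 0.085 for TTR in the interaction with nefazodone, -0.306 to 0.242 for SERPINA7 in the interaction with nefazodone and -0.053 to 0.473 for HPX between cyclosporin A and nefazodone. The cause was not tested. For all genes, leaving out mix replicate 2 or control replicate 3 lowered the count with the mix from 2006 to 1259 and 1321. Leaving out nefazodone replicate 3 lowered that for the mix on top of nefazodone from 3059 to 1844. Fitting only the groups compared lowered that between cyclosporin A and nefazodone from 7313 to 4786.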

Other observations

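Within the HepaRG groups, the array numbered 3 was the highest of its group in 8 of 8 groups for TTR, TF, HPX, SERPINA1 and A2M. The array numbered 2 was the lowest in 8 of 8 groups for TF, HPX, SERPINA1 and A2M. For AFP the counts were 2 of 8 and 1 of 8. The labels do not say what the numbers stand for.

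Of the 22 probe sets named for the 10 genes on the human array, some did not follow the one used. Over 24 arrays the correlation with the probe set used was 0.33 for ALB 214842_s_at and 0.67 for ALB 214837_at, against 0.98 for ALB 1565228_s_at. For A2M 1558450_at, at a mean log2 level of 3.97, it was 0.04.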
